A study of Mus musculus with 18 samples.

Results

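Bipolar cells carry the signal of rods and cones to the inner retina, and 10 genes that mark them or build the light response of their ON class were followed here: Grm6, Trpm1, Nyx, Gpr179, Pcp2, Prkca, Isl1, Cabp5, Car8 and Vsx1. They were taken by name from the 55487 genes of the deposited count table. RNA was sequenced from mouse retinas sorted by flow cytometry, with dead cells removed by the dye DAPI, into cells without the myeloid surface protein CD11b, called retina here, and CD11b-positive cells, the microglia fraction. Each fraction had 5 libraries from mice lacking the circadian clock gene Bmal1 in microglia (Bmal1-mg/-mg, called knockouts) and 4 from floxed mice (Bmal1f/f, called controls), 18 libraries in all. Age, sex, strain, the driver of the deletion and any pooling of animals are not given in the labels used here. Samples are numbered in the labels, with no statement that each is a separate mouse, and p-values therefore reflect sample-to-sample spread.

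Rods and cones release glutamate in the dark, and ON bipolar cells sense it through the receptor mGluR6, which acts through the G protein Go to close the channel TRPM1. Light lowers the glutamate, the channel opens and the cell depolarises. Nyctalopin and GPR179 hold this complex together at the dendritic tips, and loss of any of the 4 proteins is known to cause congenital stationary night blindness. The other 6 genes are markers: Prkca, Pcp2 and Car8 of rod bipolar cells among others, Cabp5 of rod bipolar and some cone bipolar cells, Isl1 of ON bipolar cells, and Vsx1 of cone bipolar cells. Isl1 is also expressed by some amacrine and ganglion cells, and Prkca in many tissues.

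In knockout retina all 10 genes had higher mean levels than in control retina, with log2 changes between 1.10 and 2.46 and a median of 2.01. Of these, 5 passed the test over all genes: Trpm1, Isl1, Cabp5, Car8 and Vsx1. Over all 15332 genes tested, 1.34% were called higher (1.66% in either direction), and the median log2 change was 0.00. For 9 of the 10 genes every knockout library lay above every control library, which held for 5.62% of all genes tested. The 10 genes were chosen with earlier results of these data known, so the shares over all genes are background and no independent test. In a sorted bulk fraction, more cells of a type and more RNA per cell cannot be told apart. Calls are adjusted p under 0.05 by edgeR's quasi-likelihood test, with Benjamini-Hochberg adjustment over all genes tested. Levels are CPM, counts scaled to library size, which depend on every other transcript in the library.

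The retina libraries themselves differed between the genotypes beyond these genes. Total counts of the 18 libraries ran from 32277156 to 47563119, so that 3 counts, the limit of detection used here, stood for 0.0626 to 0.0971 CPM. Between 18761 and 19713 genes had a count in knockout retina, against 16510 to 18715 in control retina. The summed level of 19 rod markers was 152100 to 192300 CPM in knockout retina, against 201500 to 291800 CPM in control retina. The summed level of 10 cone markers was 2344 to 5662 CPM in knockout retina and 744 to 1799 CPM in control retina. Arntl, the gene of BMAL1, stood in microglia at 8.00, 1.97, 18.7, 23.1 and 12.8 CPM in knockouts, against 20.7, 14.5, 9.36 and 25.6 CPM in controls (log2 change -0.44, SE 0.62, adjusted p = 0.999). Which part of the gene is deleted is not given in the labels, and its count is over all exons, so this level does not check the genotypes.

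Promoter sequences are shown for the called genes whose windows held a motif searched for. They come from RefSeq on GRCm38.p6, from 250 bases before to 50 after an annotated start, read 5′ to 3′ on the strand of the gene, and 9 of the 10 genes matched the table (all but Car8). The Vsx1 window held none of the motifs. Capitals mark TAATCC, the core bound by the photoreceptor and bipolar factors OTX2 and CRX, on either strand (GGATTA on the other), or CACGTG, the E-box that BMAL1 and its partner bind. Shown are Cabp5 (chr7:13397905-13398204, plus strand), 2 annotated starts of Trpm1 (chr7:64153585-64153884 and chr7:64185209-64185508, plus strand) and Isl1 (chr13:116309639-116309938, minus strand).
Cabp5: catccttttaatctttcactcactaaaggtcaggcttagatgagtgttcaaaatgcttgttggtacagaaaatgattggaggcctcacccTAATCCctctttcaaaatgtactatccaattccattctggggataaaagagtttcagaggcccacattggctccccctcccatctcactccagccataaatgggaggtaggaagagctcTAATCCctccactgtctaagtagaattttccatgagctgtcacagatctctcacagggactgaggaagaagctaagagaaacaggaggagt
Trpm1, upstream start: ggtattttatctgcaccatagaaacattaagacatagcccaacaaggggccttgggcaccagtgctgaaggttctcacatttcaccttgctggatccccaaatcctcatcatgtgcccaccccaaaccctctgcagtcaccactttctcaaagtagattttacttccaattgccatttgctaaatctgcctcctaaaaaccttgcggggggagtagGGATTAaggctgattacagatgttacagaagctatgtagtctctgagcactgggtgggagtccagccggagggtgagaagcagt
Trpm1, downstream start: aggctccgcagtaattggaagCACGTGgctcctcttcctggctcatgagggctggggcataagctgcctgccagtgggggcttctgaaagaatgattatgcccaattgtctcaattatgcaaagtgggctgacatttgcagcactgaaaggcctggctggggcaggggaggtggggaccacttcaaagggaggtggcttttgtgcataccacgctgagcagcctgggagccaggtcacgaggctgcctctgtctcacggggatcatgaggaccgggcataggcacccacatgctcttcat
Isl1: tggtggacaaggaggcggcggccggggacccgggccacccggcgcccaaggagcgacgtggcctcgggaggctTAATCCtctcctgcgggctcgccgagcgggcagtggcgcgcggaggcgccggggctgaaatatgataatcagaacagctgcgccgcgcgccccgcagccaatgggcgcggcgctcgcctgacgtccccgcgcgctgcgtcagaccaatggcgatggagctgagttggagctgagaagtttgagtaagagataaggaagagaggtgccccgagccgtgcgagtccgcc
TAATCC was found at positions -160 and -41 from the start of Cabp5, at -34 in the first Trpm1 window and at -177 in Isl1, in 3 of 9 genes against 8.14% of all 27025 genes in the table. CACGTG was found at -229 in the second Trpm1 window, in 1 of 9 genes against 8.09% of all. TAATTA, a homeodomain core, was in 1 of 9 (Pcp2, 6.12% of all) and CATATG, an E-box of neuronal bHLH factors, in 0 of 9 (4.48% of all). Motifs were searched on both strands. TAATTA shares its first letters with the OTX2 core, and it and both E-boxes read the same on either strand. A match describes letters in a window and does not show binding.

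The glutamate receptor and the channel were the first steps examined. Grm6 (ENSMUSG00000000617, chromosome 11, 50850685 to 50866208, plus strand, GRCm38), which encodes mGluR6, had 249, 192, 380.4, 336 and 199 CPM in knockout retina, against 90.3, 13.3, 70.5 and 61.7 CPM in control retina. Every knockout library was above the highest control, and control replicate 2 was well under the other controls. The level was 4.6-fold higher (log2 change 2.20, SE 0.49), but with an adjusted p = 0.0626 it did not pass the test. Trpm1 (ENSMUSG00000030523, chromosome 7, 64153835 to 64269775, plus strand), the cation channel, had 704, 668, 1057, 890.1 and 429 CPM in knockout retina, against 193, 44.9, 108 and 199.5 CPM in control retina. The groups did not overlap, knockout replicate 5 being the lowest of its group and control replicate 2 again the lowest of all. Trpm1 rose 5.49-fold (95% interval 2.74 to 11.0, log2 change 2.46, SE 0.45, adjusted p = 0.0325), the largest estimate of the 10 genes. It did not pass without knockout replicate 1, 2, 3 or 4 or control replicate 3, where its adjusted p was 0.0627 to 0.0831 and its log2 change 2.31 to 2.52.

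The 2 scaffold genes of the same complex did not pass. Nyx (ENSMUSG00000051228, chromosome X, 13466110 to 13489313, plus strand), which encodes nyctalopin, had 41.7, 43.9, 41.2, 26.2 and 23.5 CPM in knockout retina, against 0, 7.30, 7.61 and 11.5 CPM in control retina. Control replicate 1 had no Nyx read, and every knockout library lay well above the highest control. The log2 change was 2.42, with a wide error (SE 1.08, 95% interval -0.01 to 4.84, adjusted p = 0.352). Without control replicate 1 it was 2.02 (SE 0.33) with an adjusted p = 0.0300. Gpr179 (ENSMUSG00000070337, chromosome 11, 97332109 to 97352077, minus strand), the orphan receptor that recruits RGS proteins to the complex, had 156, 97.9, 235, 203 and 108 CPM in knockout retina, against 88.2, 30.7, 63.9 and 46.3 CPM in control retina. The groups did not overlap, but the highest control reached close to the lowest knockout (log2 change 1.48, SE 0.36, adjusted p = 0.0843).

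Among the markers, the calcium-binding protein gene Cabp5 had the smallest error. Cabp5 (ENSMUSG00000005649, chromosome 7, 13398132 to 13408887, plus strand) had 152, 157, 212, 175 and 161 CPM in knockout retina, against 48.1, 42.7, 57.6 and 61.6 CPM in control retina. Both groups were tight and far apart. The 3.26-fold rise (95% interval 2.56 to 4.16, log2 change 1.71, SE 0.16, adjusted p = 0.00569) passed in every one of the 9 fits with 1 library removed. Car8 (ENSMUSG00000041261, chromosome 4, 8143362 to 8239041, minus strand), an inactive relative of carbonic anhydrases that binds the IP3 receptor, had 58.9, 45.6, 74.3, 131 and 62.9 CPM in knockout retina, against 14.7, 13.02, 13.8 and 23.7 CPM in control retina. Knockout replicate 4 was the highest and 3 of the 4 controls were nearly equal. Car8 rose 4.58-fold (95% interval 2.68 to 7.81, log2 change 2.19, SE 0.34, adjusted p = 0.0189), and its call was lost without control replicate 3, where the adjusted p was 0.0571.

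The 2 classical rod bipolar markers did not pass. Pcp2 (ENSMUSG00000004630, chromosome 8, 3623371 to 3625545, minus strand), a small modulator of Go signalling, had 90.4, 121, 142, 140.1 and 57.3 CPM in knockout retina, against 29.9, 10.8, 26.3 and 47.9 CPM in control retina. The groups did not overlap (log2 change 1.94, SE 0.43, adjusted p = 0.0617), and it passed without knockout replicate 5 (0.0414) or control replicate 4 (0.0357). Prkca (ENSMUSG00000050965, chromosome 11, 107933387 to 108343928, minus strand), which encodes protein kinase C alpha, had 260, 168, 221, 237 and 131 CPM in knockout retina, against 146, 62.1, 49.3 and 122 CPM in control retina. It was the single gene of the 10 whose groups overlapped, at knockout replicate 5 and control replicate 1. Its log2 change of 1.10 was the smallest of the set (SE 0.35, 95% interval 0.33 to 1.88, adjusted p = 0.158).

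Both transcription factor genes rose. Isl1 (ENSMUSG00000042258, chromosome 13, 116298281 to 116309689, minus strand), a LIM homeodomain factor needed for ON bipolar cells, had 105, 100.4, 140 and 122 CPM in knockout retina replicates 1 to 4 and 93.2 CPM in replicate 5, against 41.2, 11.8, 16.6 and 36.1 CPM in control retina. The lowest knockout was more than double the highest control, while the controls themselves fell into a lower and a higher pair. Isl1 rose 4.24-fold (95% interval 2.38 to 7.56, log2 change 2.09, SE 0.37, adjusted p = 0.0305). Vsx1 (ENSMUSG00000033080, chromosome 2, 150680702 to 150689360, minus strand), a paired-type homeodomain factor of cone bipolar cells, had 44.3, 37.1, 61.2, 38.8 and 29.3 CPM in knockout retina, against 20.1, 9.49, 8.84 and 12.7 CPM in control retina. Vsx1 rose 3.30-fold (95% interval 1.99 to 5.46, log2 change 1.72, SE 0.32, adjusted p = 0.0373) with no overlap. With 1 library removed at a time, Isl1 was called in 4 and Vsx1 in 2 of 9 fits. Isl1 lost its call without knockout replicate 1, 2, 3 or 4 or control replicate 3, with an adjusted p of 0.0606 to 0.0772, and Vsx1 without any of these or control replicate 2 or 4, with 0.0603 to 0.0888.

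**Figure D1:**
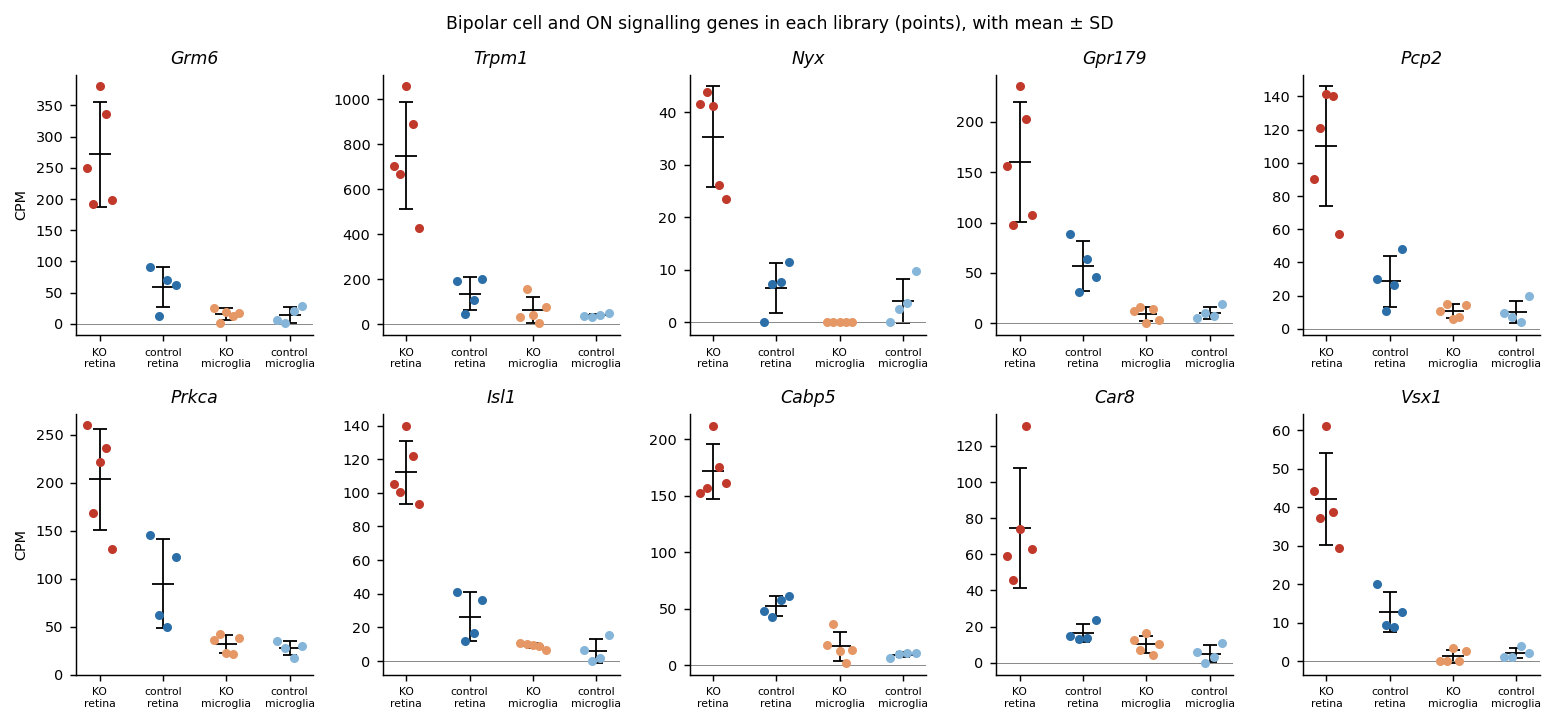
Level of each of the 10 genes in every library, in CPM, by group: knockout retina, control retina, knockout microglia and control microglia. In the retina fraction the knockout points lie above the control points for every gene except Prkca, where knockout replicate 5 (131 CPM) is under control replicate 1 (146 CPM).

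Leaving out single libraries moved the count of calls, from 5 of the 10 genes to 2 without knockout replicate 1, 2, 3 or 4, and to 1 without control replicate 3. Without knockout replicate 5 or control replicate 1 it was 6, and without control replicate 2 or 4 it was 5. Of all genes tested, 0.945%, 0.828%, 0.647%, 0.758% and 2.13% were called without knockout replicates 1 to 5, against 1.66% with all libraries. Without control replicates 1 to 4 the share was 1.36%, 1.23%, 0.85% and 2.14%. All 10 estimates were positive in each of these 9 fits, with medians between 1.77 and 2.27. Control replicate 2 was the lowest control for 7 of the 10 genes, and without it the median log2 change was 1.77. In the authors' deposited table, 9 of the 10 genes (all but Nyx, 0.0803) had an adjusted p under 0.05, as had 5.58% of its 13330 genes. DESeq2 likewise called 9 of the 10 genes, where it called 7.77% of all genes. In a fit over all 18 libraries 0 of the 10 genes were called, with 217 of 18128 genes called in all, and 0 were called with either covariate described further on.

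The order of levels was set by dividing CPM by the exon length of each gene. In knockout retina Cabp5 led with 67.8 ± 9.58 CPM per kb (SD, n = 5), followed by Pcp2 (60.2 ± 19.7), Trpm1 (50.9 ± 16.1) and Grm6 (50.1 ± 15.5), whose ranges overlapped. Isl1 came next (28.3 ± 4.75 CPM per kb), its highest library just under the lowest of Grm6, and then Prkca, Car8, Gpr179, Vsx1 and Nyx (6.81 ± 1.86), each overlapping with the next. In control retina the order was Cabp5 (20.8 ± 3.43 CPM per kb, SD, n = 4), Pcp2, Grm6, Prkca, Trpm1, Isl1, Gpr179, Car8, Vsx1 (3.37 ± 1.36) and Nyx (1.27 ± 0.925). Among neighbours in that order only Vsx1 and Nyx did not overlap. Trpm1 stood at rank 3 in knockouts and rank 5 in controls, and Prkca at rank 6 in knockouts and rank 4 in controls.

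The genes were also set against each other within a library. Relative to the median of the 10 genes in the same library, Trpm1 stood at 2.45 ± 0.21 in knockout retina and 1.87 ± 0.26 in control retina on the log2 CPM scale (SD, n = 5 and 4). Grm6 stood at 1.00 ± 0.13 in knockout retina and 0.59 ± 0.48 in control retina, and Prkca at 0.59 ± 0.27 in knockout retina and 1.43 ± 0.74 in control retina. Pcp2 had the same mean ratio in both, at -0.32. The ranges of the genotypes overlapped for each of these 4 genes, and the ratios were not tested. The profile of the set over the libraries, as the median of centred log2 levels, was 0.90, 0.64, 1.33, 1.11 and 0.55 in knockout replicates 1 to 5, against -0.59, -1.53, -1.22 and -0.65 in control replicates 1 to 4. Knockout replicate 3 was the highest knockout for 7 genes and replicate 5 the lowest for 6.

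Genes outside the set with the nearest profile over the 9 retina libraries were Kcnma1, a calcium-activated potassium channel gene, at a root mean square distance of 0.161 log2 units, and the adhesion protein gene Igsf21, at 0.181. Then came Aplp1 (0.184), a relative of the amyloid precursor protein gene, Trnp1 (0.193) and Itm2c (0.225), out of 8455 genes with a mean of at least 10 CPM. Kcnma1 had 179 CPM in knockout retina and 55.5 CPM in control retina, and Igsf21 had 189 CPM in knockout retina and 52.8 CPM in control retina. Of the set itself, Vsx1 (0.237), Cabp5 (0.290) and Isl1 (0.298) were nearest to the shared profile and Nyx (1.502) was farthest.

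The partners of the ON cascade had mostly positive changes. Of 9 genes of its G protein, RGS complex and anchors, 2 were called higher and 0 lower. The log2 change was positive in 6, with a median of 1.63. For 5 of them every knockout library lay above every control library, as for 5.62% of all genes tested, and for 0 below. Among the 5 were the uncalled Gng13 (log2 change 1.83, adjusted p = 0.0745), Rgs11 (2.10, adjusted p = 0.429) and Rgs7bp (1.63, adjusted p = 0.306). Gnao1, the alpha subunit of Go, rose to 259.9 ± 62.0 CPM in knockout retina, against 69.0 ± 31.6 CPM in control retina (log2 change 1.91, SE 0.35, adjusted p = 0.0340). Gnb3, a G protein beta subunit of ON bipolar cells and of cones, rose to 915 ± 206 CPM in knockout retina, against 278 ± 71.2 CPM in control retina (1.72, SE 0.23, adjusted p = 0.0135). Rgs7, whose protein turns Go off, had 32.3 ± 13.8 CPM in knockout retina and 12.4 ± 9.31 CPM in control retina (1.39, adjusted p = 0.677), and Lrit3, whose protein places nyctalopin, 7.54 ± 4.10 CPM in knockout retina and 10.8 ± 1.57 CPM in control retina (-0.52, adjusted p = 0.732). Gnb5, the beta subunit of the RGS complex in both photoreceptors and bipolar cells, had 743 ± 81.7 CPM in knockout retina and 880.1 ± 106 CPM in control retina (log2 change -0.25).

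Genes of the photoreceptor side of the same synapse had a median log2 change of 0.05. By edgeR 0 of 8 were called, with 2 at an unadjusted p under 0.05. These were Elfn2, higher (log2 change 2.36, SE 1.02, adjusted p = 0.334), and Cacnb2, lower (-0.43, SE 0.13, adjusted p = 0.147). The genotypes did not overlap for either. Elfn1, the rod adhesion protein that binds mGluR6, had 106 ± 8.42 CPM in knockout retina and 101.5 ± 41.2 CPM in control retina (log2 change 0.06, adjusted p = 0.963). Cacna1f, the calcium channel of the photoreceptor terminal, had 445 ± 54.2 CPM in knockout retina and 458 ± 105 CPM in control retina (-0.04, adjusted p = 0.96). The log2 changes of the 10 genes and of both these lists are drawn in one plot.

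**Figure D2:**
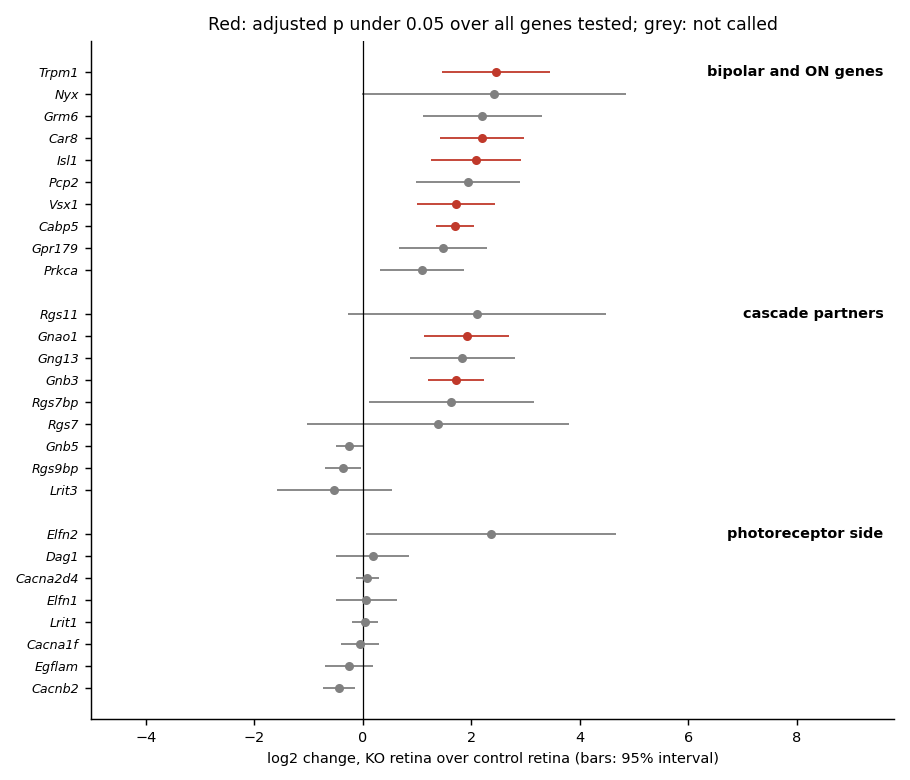
Log2 change between knockout and control retina with its 95% interval, for the 10 genes, the cascade partners and the photoreceptor side of the synapse; red marks an adjusted p under 0.05 over all genes tested. The 10 genes lie between 1.10 and 2.46, while most genes of the photoreceptor side of the synapse lie near 0.

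Other bipolar genes had mostly positive changes in these libraries. Of 10 bipolar transcription factor genes 9 had positive log2 changes (median 1.45), and 1 passed the test. Prdm8, needed to form rod bipolar cells, stood at a log2 change of 0.27 (adjusted p = 0.670), and Bhlhe22 at 1.63 (0.760). Otx2, a factor that photoreceptors share with bipolar cells, had 182 ± 33.8 CPM in knockout retina and 217 ± 27.1 CPM in control retina (-0.26, adjusted p = 0.532).

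Markers of ON and OFF subtypes were compared as further lists. All 11 genes listed for ON subtypes had positive changes (median 1.53), and 3 rose, among them the calcium sensor gene Scgn and the homeobox gene Sebox. Scgn had 201 ± 35.2 CPM in knockout retina and 69.6 ± 28.7 CPM in control retina (1.53, adjusted p = 0.0479). Sebox had 86.4 ± 28.6 CPM in knockout retina and 23.8 ± 12.2 CPM in control retina (1.86, adjusted p = 0.0493). Cpne9 and Igfn1 had log2 changes of 0.47 and 1.16 with large errors (adjusted p = 0.912 and 0.909). Of the 9 tested genes listed for OFF subtypes 8 were positive (median 1.36), 0 were called by edgeR and 3 had an unadjusted p under 0.05. The receptor genes Chrm2 and Erbb4 stood at 0.19 and -1.90 (adjusted p = 0.985 and 0.808). Summed levels did not overlap between the genotypes for either list. For the 10 OFF genes they were 226 to 412 CPM in knockout retina and 43.9 to 205 CPM in control retina. For the 11 ON genes they were 559.5 to 875.5 CPM in knockout retina and 102 to 292 CPM in control retina. No test of ON against OFF markers was made. Whether each listed gene, Scgn included, is confined to ON or to OFF cells was not tested.

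Markers of some other retinal cell types moved in the same libraries. Of 19 rod markers 6 fell and 0 rose, and all 19 log2 changes were negative (median -0.55, from -1.08 to -0.23). Of 10 cone markers 3 rose, all 10 were positive and the median was 1.60. Amacrine markers had 1 of 7 tested called higher (median 1.06), endothelial markers 1 of 8 (median 1.25) and Müller glia markers 0 of 10 (median 0.65). Summed levels of amacrine markers were 251 to 394 CPM in knockout retina and 70.1 to 186 CPM in control retina, without overlap, and those of endothelial markers 263 to 486 CPM in knockout retina and 91.0 to 245 CPM in control retina. Müller glia sums overlapped, at 3378 to 6260 CPM in knockout retina and 1721 to 4382 CPM in control retina. Ganglion cell markers had a median of 0.01 and 0 calls by edgeR among 7 tested (0 also at an unadjusted p under 0.05), with sums of 12.9 to 25.6 CPM in knockout retina and 5.84 to 29.8 CPM in control retina. The 12 microglia markers summed to 8.45 to 19.1 CPM in knockout retina and 15.3 to 27.5 CPM in control retina, with P2ry12 and Itgam at 0 in knockout retina and Aif1 at 0 in control retina. The part of the other cell types in the result was not tested.

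The 10 genes together summed to 1294 to 2563 CPM in knockout retina, against 246 to 671 CPM in control retina, 3.93-fold higher by the ratio of means. As a ratio to the rod marker sum they stood at 0.0113 ± 0.00398 in knockout retina and 0.00219 ± 0.00117 in control retina. As a ratio to the cone marker sum they stood at 0.502 ± 0.0721 in knockout retina and 0.385 ± 0.0718 in control retina, with overlapping ranges. The ratio to the Müller glia sum was 0.418 ± 0.0904 in knockout retina and 0.169 ± 0.0591 in control retina (SD, n = 5 and 4 for each ratio). The ratios to rods and to Müller glia did not overlap between the genotypes. Those to cones, to amacrine markers (3.28 to 9.17 in knockout retina, 2.62 to 5.75 in control retina) and to endothelial markers (3.62 to 6.33 in knockout retina, 2.54 to 4.27 in control retina) did.

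**Figure D3:**
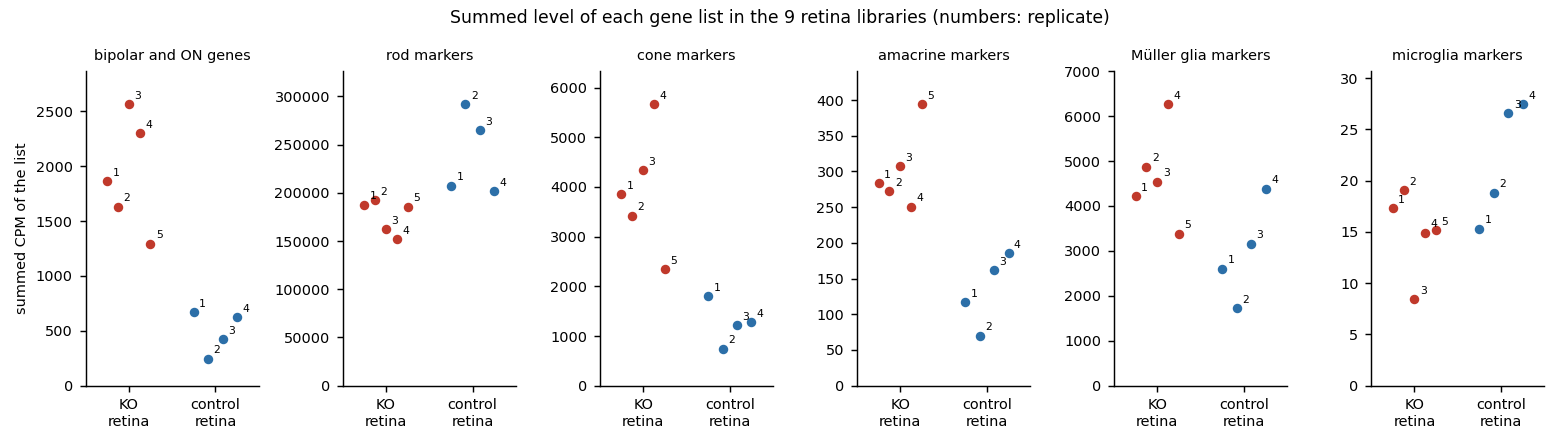
Summed CPM of the 10 genes and of 5 marker lists in each retina library, knockouts left and controls right, numbered by replicate, each panel with its own axis from 0. Knockouts lie above controls for the 10 genes (1294 to 2563 against 246 to 671 CPM), cones and amacrine cells, and under them for rods.

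With the mean log2 level of the rod markers as a covariate, the log2 changes of the 10 genes ran from -0.08 (Pcp2) to 2.37 (Nyx), with a median of 0.58, and 0 were called, nor was any other gene. With each library's number of detected genes as a covariate they ran from 0.38 (Prkca) to 2.50, with a median of 1.20, and 0 of the 10 and 2 of all genes (0.013%) were called. Cabp5 stood at 1.21 with the rod covariate (adjusted p = 0.47) and 1.46 with the gene number (adjusted p = 0.249). The summed rod level and the number of detected genes each separate the genotypes without overlap, so they and the genotype cannot be told apart in these 9 libraries.

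**Figure D4:**
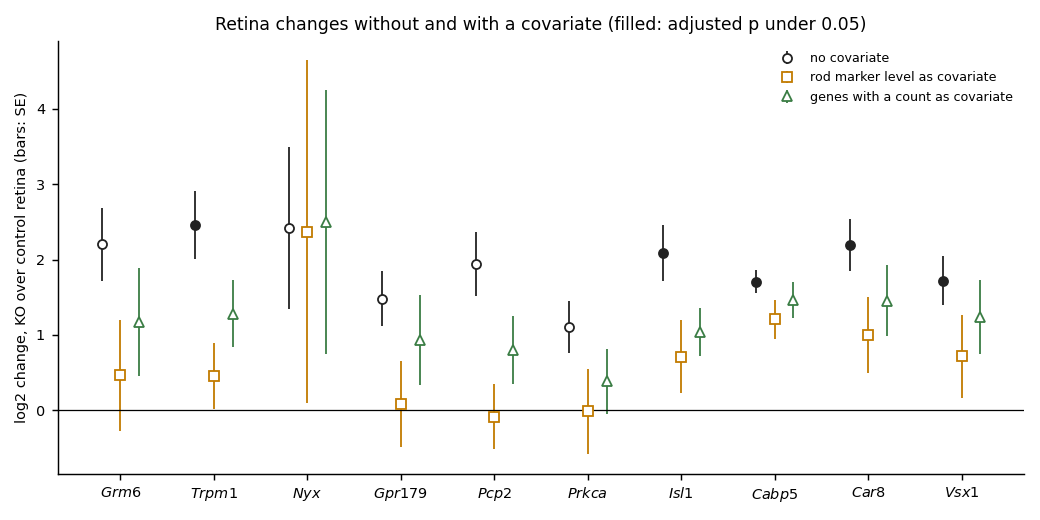
Log2 change of each of the 10 genes between knockout and control retina with no covariate, with the rod marker level and with the number of detected genes (at least one count) as covariate. The median falls to 0.58 with the rod level, and to 1.20 with the gene number, against 2.01 without a covariate.

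In sorted microglia the genotypes did not separate for any of the genes. Of the 9 genes tested 0 were called by edgeR, DESeq2 or limma voom, 0 had an unadjusted p under 0.05, and the median log2 change was 0.22, where 0.115% of all genes tested were called. Prkca, with the smallest error, had 35.5, 41.8, 22.3, 21.8 and 38.3 CPM in knockout microglia, against 35.4, 27.6, 17.7 and 29.3 CPM in control microglia (log2 change 0.22, 95% interval -0.43 to 0.86, edgeR adjusted p = 0.999). Cabp5 had 18.2, 36.9, 12.7, 2.23 and 13.2 CPM in knockout microglia, against 6.21, 9.54, 11.2 and 11.0 CPM in control microglia (log2 change 0.81, 95% interval -0.63 to 2.26, adjusted p = 0.999). Trpm1 had the largest SD in CPM among knockouts, with 33.9, 157, 39.6, 6.99 and 75.9 CPM, against 38.5, 32.8, 41.6 and 49.7 CPM in control microglia (0.62, interval -0.89 to 2.14, adjusted p = 0.999). The microglia intervals of Prkca, Trpm1 and Pcp2 (upper bound 1.26) end under their retina estimates of 1.10, 2.46 and 1.94. That of Cabp5 includes its retina estimate of 1.71, and those of Grm6, Gpr179, Isl1, Car8 and Vsx1 also include theirs. For these genes a change as large as in retina is not excluded in microglia. The retina intervals of Prkca (0.33 to 1.88), Trpm1 (1.46 to 3.46) and Pcp2 (0.98 to 2.90) overlap those in microglia, and the difference is tested further on.

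Nyx was below the filter on low counts in microglia and did not enter that fit. It had 1, 2, 0, 0 and 0 reads in knockout microglia, 3 in all, against 1, 104, 153 and 385 reads in control microglia, 643 in all. Per total count the ratio was 0.00390 (95% counting interval 0.000802 to 0.0114). These bounds cover only counting error, because amplified cDNA reads do not count molecules independently. Control replicate 1 had 1 read, as few as the knockouts, so the genotypes overlapped, and without that library Nyx passed the filter but was not called.

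Retina was also set against the sorted microglia of the same genotype, which shows in which fraction more of the RNA was found. Which cells of a fraction the RNA came from was not tested. In knockouts 10 of 10 genes were called higher in retina, against 21.2% of all genes tested, with a median log2 difference of 3.53. In controls 5 of 10 were called higher, Trpm1, Gpr179, Prkca, Cabp5 and Vsx1, against 17.4% of all genes tested, with a median of 1.76. The control libraries overlapped for Trpm1, whose call (log2 difference 1.59, SE 0.43, adjusted p = 0.0202) was lost without control retina replicate 1 or 4 or control microglia replicate 1, 2 or 3, with an adjusted p of 0.0513 to 0.0608. The 2 fractions were sorted at the same time, and libraries of one number may share a mouse, which the labels do not state. With the replicate number as a block, Vsx1 was not called in controls (adjusted p = 0.0571) and Grm6 was (log2 difference 2.50, adjusted p = 0.04998). Cabp5 was 4.99-fold higher in control retina than in control microglia (log2 difference 2.32, SE 0.27, adjusted p = 0.000288). Grm6, Nyx, Pcp2, Isl1 and Car8 did not pass in controls, with an adjusted p from 0.106 to 0.821.

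The level in microglia as a percent of that in retina had a median of 8.66% over the 10 genes in knockouts and 29.6% in controls. For the 19 rod markers it was 6.60% in knockouts and 4.91% in controls, and for 10 cone markers 5.97% in knockouts and 15.7% in controls. The sum of the 10 genes in microglia was 78.7 to 285 CPM in knockouts and 91.7 to 195 CPM in controls, and that of the rod markers 6663 to 14730 CPM in knockouts and 9110 to 13240 CPM in controls. Both sums overlapped between the genotypes in microglia.

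**Figure D5:**
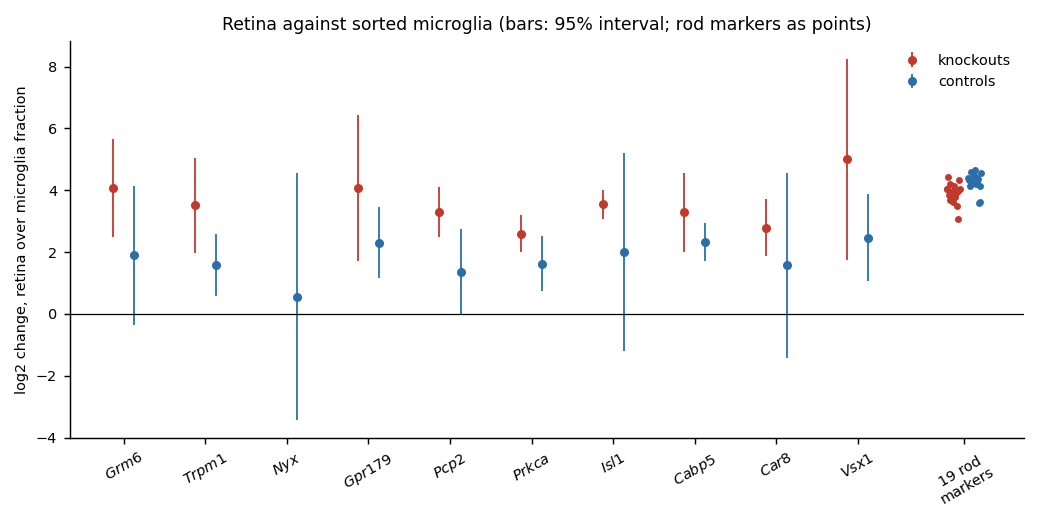
Log2 difference between retina and sorted microglia in knockouts (red) and controls (blue) with 95% intervals, beside 19 rod markers as points. The rod markers have medians of 3.92 in knockouts and 4.35 in controls, and the 10 genes 3.53 in knockouts and 1.76 in controls; Nyx in knockouts is not drawn because knockout microglia held 3 reads.

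The genotype difference in retina was tested against that in microglia in one fit over the 18 libraries. All 10 differences were positive, with a median of 1.79, where all 18128 genes tested had a median of 0.13. Of the 10 genes 1 was called, Nyx (adjusted p = 0.0450), against 0.392% of all genes tested called higher. The other 9 had an adjusted p from 0.236 (Pcp2, difference 1.90, SE 0.66) to 0.817 (Car8, 1.18, SE 1.19), with 0.379 for Trpm1 (1.88, SE 0.86) and 0.658 for Cabp5 (0.93, SE 0.67). For these 9 genes the retina change was therefore not shown to differ from that in microglia. The Nyx call rests on knockout microglia with 3 reads in all, so its fitted size is no measure of the effect. Removing 1 library at a time ended it in 14 of 18 fits, with an adjusted p of 0.0602 to 0.102 in those.

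Exons of 4 genes lie opposite to another gene, and whether counting used strand is not given in the sources used here. Gm12660 opposite Grm6 had 0.409 CPM in knockout retina and 0.0557 CPM in control retina, and Gm44722 opposite Trpm1 2.49 CPM in knockout retina and 0.246 CPM in control retina. Pet100 opposite Pcp2 had 3.43 CPM in knockout retina and 4.39 CPM in control retina, and Apoh opposite Prkca 0.592 CPM in knockout retina and 0.0626 CPM in control retina. In retina the means are far under those of the 4 genes, although Pcp2 in control replicate 2 was at 10.8 CPM. In microglia Pet100 averaged 5.08 CPM in both genotypes, close to Pcp2 there (6.03 to 14.9 CPM in knockouts, 4.10 to 19.6 CPM in controls).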

How the data were processed

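Per the labels' protocols, RNeasy Plus Micro columns gave the RNA, SMARTer Ultra Low chemistry the amplified cDNA, and a NovaSeq X Plus paired reads. DRAGEN, STAR 2.7.9a, Subread, featureCounts, edgeR, limma and GRCm38 are named in the submitters' processing notes, without roles. The authors deposited raw counts per gene (55774 lines, 287 of them repeats of an identifier) and, per the file headers, a table per genotype comparison with log2 changes, a likelihood ratio score, p-values and their adjusted form. The values of those tables are printed as the authors' deposited table, with no error of their own.

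Counts were tested with edgeR 4.0.16 in R 4.3.3 (filterByExpr by group, TMM scaling, quasi-likelihood), per fraction for genotype, per genotype for fraction, and over 18 libraries for the interaction. Printed CPM are scaled by TMM within the fraction. SE is the log2 change over the root of F. Exon lengths and positions are from GENCODE M21. Profiles used log2 with 0.5 CPM added. Alternatives were DESeq2 1.42.0 and its size factors, limma 3.58.1 voom, other filters, a replicate block, covariates and leaving out each library. The main edgeR fits, but not the alternatives, were checked on simulated counts. Those had the same dispersion for all genes, unlike the real counts. The genes and lists were chosen with earlier results of these data known. From each pathway list up to 4 called genes with the smallest p and the 2 with the largest p are named. Gnb5, Gng13, Rgs11, Rgs7bp, Elfn2, Cacnb2, Otx2, P2ry12, Itgam, Aif1 and the antisense genes were added after their values were seen. A few further genes under this rule are not reported here. No 2 libraries were identical (0 pairs), and 0 columns were unused.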

Additional observations from a re-analysis of the deposited data

Results flagged for a closer look

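Among the levels of the 10 genes, 1 of 40 combinations of gene and group held a library far from the others: Car8 in control retina replicate 4, at 23.7 CPM, where the other 3 controls had 13.02 to 14.7 CPM. Chance alone gives about 1 such library in 20 groups. The Nyx genotype difference in retina differed from that in microglia (edgeR interaction adjusted p = 0.0450), with 41.7, 43.9, 41.2, 26.2 and 23.5 CPM in knockout retina against 0, 7.30, 7.61 and 11.5 CPM in control retina, and 3 reads in knockout against 643 in control microglia.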

How the results depend on the processing

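Of the 10 genes 5 were called in retina, where 1.66% of all genes tested were called. The count was 5 with the size factors of DESeq2 (1.71% of all genes) and 4 without a filter (0.419%). It was 5 at 1 CPM in 4 libraries (1.95%), 6 with limma voom (2.37%) and 9 with DESeq2 (7.77%). It was 0 with the rod marker level, with the detected gene number (chosen after seeing the data) and in a fit over 18 libraries, where 217 of all 18128 genes were called; the cause of the last was not tested. Without 1 library it ranged from 1 to 6, with 0.647% to 2.14% of all genes called. With the replicate number as a block it was 0, and 0 over all genes. Knockout replicate 5 has no control of that number, so it adds nothing to that estimate. Deviations of same-numbered libraries had correlations across genes of 0.01 to 0.08 between knockout and control retina and -0.12 to 0.02 between knockout and control microglia. Between retina and microglia of a genotype they were -0.03 to 0.06. Knockout and control libraries come from different mice, and the labels give no meaning to a number shared across genotypes. Within a genotype a shared animal need not show in such correlations, so they do not settle whether the numbers pair the fractions. Whether same-numbered fractions share a mouse is not given. With the rod level Pcp2 (-0.083) and Prkca (-0.015) turned negative. In microglia the count was 0 under each of these settings, and signs turned for Trpm1 (-0.18 with the block), Gpr179 (0.038 with the rod level, 0.34 with the gene number) and Grm6 (-0.56 with the gene number). Leaving out 1 library gave log2 changes in microglia of -0.27 to 0.71 for Grm6, -0.053 to 0.913 for Trpm1, -0.48 to 0.27 for Gpr179 and -0.17 to 0.64 for Pcp2. Retina against microglia gave 5 calls in controls (4 to 6 without 1 library) and 10 in knockouts. In controls the block gained Grm6 (adjusted p = 0.05) and lost Vsx1 (0.0571). The single interaction call, Nyx, became 0 without a filter or with limma voom, and 0 to 1 without 1 library. With limma voom the interaction turned negative for Isl1 (-0.74) and Car8 (-0.82). All 10 genes were over the limit of 3 counts in every retina library, except Nyx in control replicate 1, while in microglia Nyx, Vsx1, Gpr179, Isl1 and Car8 had libraries at 0.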
